A study of Mus musculus with 24 samples.

Results

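Among the MspI fragments covered by RRBS of brown adipose tissue (BAT) from infant mice, 398 differed most in methylation level between control litters. They were selected on measured values: a fragment was taken when it had 50 or more CpG calls in at least 10 of the 12 vehicle (VEH) libraries and when the SD of its level across those libraries was 0.08 or more, which is 8 percentage points. Of the 65535 fragments in the table, 15960 had enough calls to be judged, so the 398 made up 2.49% of the eligible fragments. The authors' annotation assigned them to 325 genes, often at a distance. The level of a fragment is the share of its calls that were methylated, and because the VEH levels chose the fragments, every VEH spread given here is a description without a test. The 12 DDT libraries played no part in the choice.

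All 24 libraries came from female C57BL/6J mice at postnatal day (PND) 12. The 12 VEH libraries, labelled OIL, came from litters of dams given olive oil, and the 12 DDT libraries from litters of dams given DDT, as its o,p' and p,p' isomers, around birth. Each library was made from BAT pooled over female littermates, so the replicate is the litter, and a difference between pups of 1 litter cannot be seen. The libraries held 8371958 to 14124652 CpG calls on chromosomes 1 and 2 and part of chromosome 3. A level in bulk tissue averages over cells and over both alleles, so a different mix of cells and a different level within cells cannot be told apart, and RRBS has no expression values with which to check the cells of the tissue. Calls come from PCR copies of fragments, so intervals and counting errors below cover counting error only.

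In mammals, DNA methylation sits mainly on the cytosine of CpG pairs and is copied to the new strand at each cell division. Most CpG-rich promoters are free of it and most other CpGs are almost fully methylated, so that a level in between is found at imprinted genes, where 1 parental allele is methylated and the other is not, and at sites where cells of a tissue differ. RRBS cuts DNA with MspI at CCGG, and the level of a fragment therefore starts with the CpG of the cut site itself.

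Sequences are shown for the fragment with the largest spread, for a fragment of the imprinted Gnas locus covered by many more calls, for a fragment that moved in the opposite direction, and for pairs of a variable and a steady fragment at the imprinted genes Gnas and Nnat. They are the plus strand of GRCm38.p6 from RefSeq, 5′ to 3′, and capitals mark the CpGs that could be called.
Bcar3, chr3:122483707-122483764: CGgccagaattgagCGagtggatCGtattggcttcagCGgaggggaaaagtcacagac
Gnas, variable, chr2:174328491-174328543: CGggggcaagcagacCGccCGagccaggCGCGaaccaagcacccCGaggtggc
Phf17, opposite direction, chr3:41520182-41520218: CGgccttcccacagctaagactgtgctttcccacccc
Gnas cluster, variable, chr2:174299653-174299688: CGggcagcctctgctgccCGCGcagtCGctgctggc
Gnas cluster, steady, chr2:174299898-174299946: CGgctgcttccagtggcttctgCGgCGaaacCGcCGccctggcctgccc
Nnat, variable, chr2:157559574-157559608: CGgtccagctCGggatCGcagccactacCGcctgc
Nnat, steady, chr2:157560274-157560310: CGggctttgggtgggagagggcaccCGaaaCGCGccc
The variable and the steady fragments of a pair are of similar length and hold 4 or 5 CpGs each, while the Phf17 fragment has 1 CpG, that of the cut site.

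The largest spread was at a fragment of Bcar3, an adaptor protein of cell adhesion signalling, which the authors placed in an intron and where GENCODE M21 also lists an exon of a Bcar3 transcript. Its VEH levels ran from 0% in VEH replicate 8 over a median of 23.4% to 70.8% in VEH replicate 10, with an SD of 19.3 points (n = 12). VEH replicate 8 had 0 methylated calls of 79, which allows a level of up to 3.80% by a limit of 3 calls and of 4.64% by the 95% Wilson interval, while that of VEH replicate 10 was 63.5% to 77.1%. VEH replicates 4, 10 and 11 were high, and the other 9 libraries were at 26.9% or below. Across the DDT libraries without replicates 4 and 12, the same fragment had an SD of 11.5 points (n = 10).

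The fragment in Gnas, which encodes the stimulatory G protein subunit that couples β-adrenergic receptors to cyclic AMP, had the most calls of the 10 widest fragments, with a median of 1027 per VEH library. Its VEH levels ran from 14.5% in VEH replicate 8 (95% Wilson interval 12.3% to 17%) over a median of 59.5% to 75.4% in VEH replicate 10 (73.6% to 77.2%). The spread of 17.4 points (SD, n = 12) was far above the 1.44 points that counting error alone would give. In DDT the levels ran from 20.1% to 68.8% in the 10 libraries other than replicates 4 and 12 (SD 15.8 points), while replicates 4 and 12 were at 99% and 8.54%.

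Near Phf17, the older symbol of Jade1, a subunit of a histone acetyltransferase complex, the order of libraries was turned round. The fragment lies 35531 bp from the Jade1 start and in no GENCODE gene. VEH replicate 10 had its lowest level, 27.3%, the median was 62.9%, and VEH replicate 8 had the highest level, 85.4% (SD 18.2 points, n = 12).

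The other 7 of the 10 widest fragments had SDs from 16.1 to 18.2 points. By the authors' assignment, fragments lay upstream of Hspa5, the chaperone BiP of the endoplasmic reticulum, and of the circadian clock gene Per2. Further fragments lay in an exon of Lrrn2 and upstream of Kprp. Others were in an exon of the vesicle protein gene Syt2 and at an exon border of Vps72, a subunit of a chromatin remodelling complex. The fragment that the authors assigned upstream of Mir298 lies in an exon of Gnas by GENCODE M21. At the Hspa5, Per2, Lrrn2, Mir298 and Vps72 fragments the lowest level was in VEH replicate 8 or 1, and at Kprp and Syt2 it was in VEH replicate 2. The Per2 assignment is distant, since the start of Asb1, 77935 bp away, was the nearest protein-coding start to that fragment. For the Hspa5 and Kprp fragments the distance to the gene is not given here, so they need not be close to it.

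**Figure D1:**
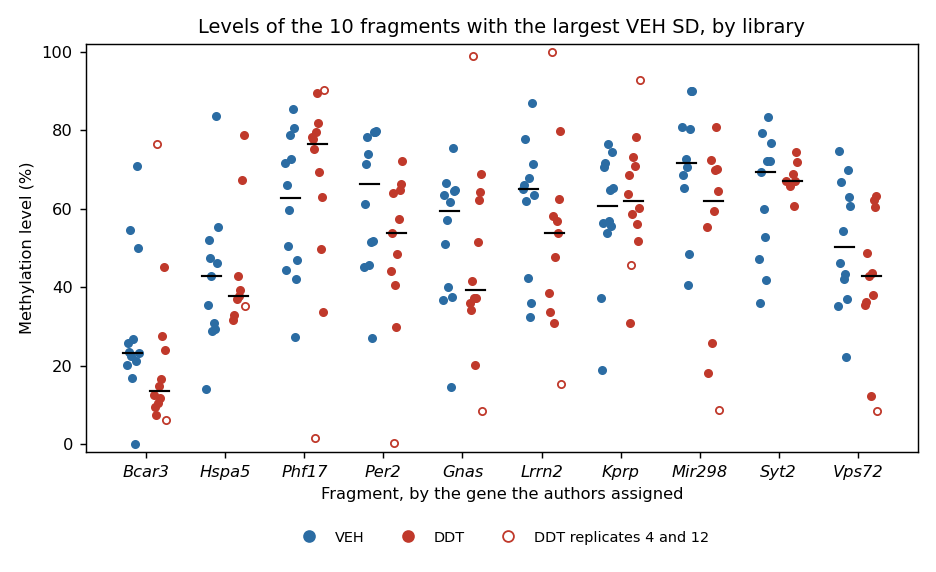
Methylation level in percent of the 10 fragments with the largest VEH SD, 1 point per library with 50 or more calls, VEH in blue and DDT in red, with open circles for DDT replicates 4 and 12 and a black line at the median of all points of the group. VEH levels at Bcar3 span 0% to 70.8% and those at Gnas 14.5% to 75.4%, and the 2 groups overlap at every fragment.

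Over all 398 fragments the median VEH SD was 9.58 points, against 1.79 points over the 15960 eligible fragments. An SD of 10 points or more was found at 165 of them and 15 points or more at 18. The difference between the highest and lowest VEH level had a median of 32 points and ran from 22.4 to 70.8 points. Just inside the threshold were fragments of Abca2, Nnat and Car1 with SDs of 8.004, 8.016 and 8.026 points, and just outside it those of Lrp1b, Ggta1 and Nmnat2 with 7.996, 7.983 and 7.969 points.

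Counting error sets part of these spreads. Taking each call as independent, counting alone would give the variable fragments a median SD of 3.87 points, and the measured SD was at least 1.45 times that value at every fragment and at least 3 times at 150 of 398. If instead all CpGs of a read are methylated together, the median rises to 5.32 points, and 50 fragments had an SD below their own value. Variable fragments had fewer calls than other eligible ones, with a median of 139 per VEH library against 381. Among eligible fragments at a mean level of 30 to 70%, 52 of 125 with 50 to 99 calls were variable (41.6%), against 25 of 373 with 400 to 799 calls (6.70%).

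Intermediate levels were the rule. The mean VEH level lay between 20 and 80% at 349 of the 398 fragments (87.7%), compared with 2654 of 15960 eligible fragments (16.6%), and the share of variable fragments was 17.5% at a level of 30 to 40% but 0.0504% below 5% and 0.0468% at 90% or above. The SD of a share is bounded near 0 and 100%, so the level and the rule are not independent. Other fragments at 30 to 70% therefore serve as the closest comparison below, of which there were 1311 with a smaller SD.

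**Figure D2:**
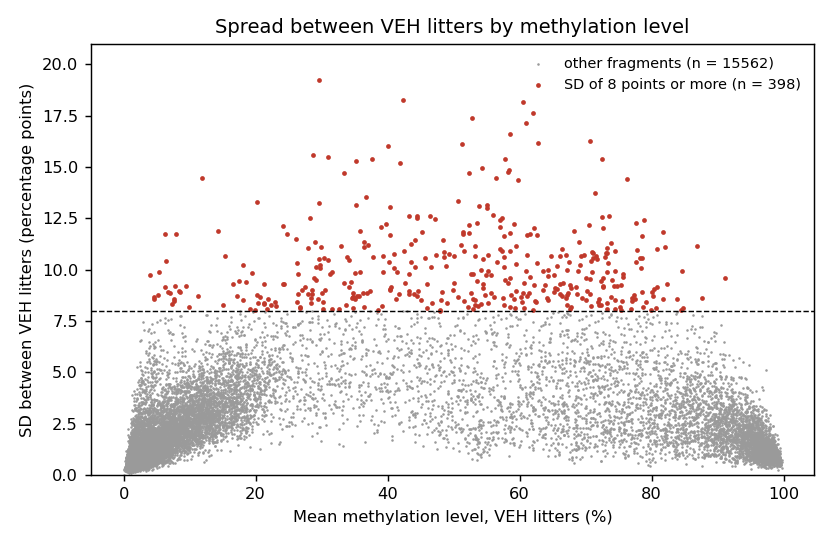
Mean methylation level over the VEH litters in percent (horizontal) and SD between VEH litters in percentage points (vertical) for the 15960 eligible fragments. The 398 fragments at or above the dashed threshold of 8 points are red, and 349 of them have mean levels between 20 and 80%.

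Length and CpG number also differed, as a description. The variable fragments had a median length of 55 bp, and 173 of 398 (43.5%) were 50 bp or shorter, whereas the other fragments at 30 to 70% had a median of 42 bp and 903 of 1311 (68.9%) were 50 bp or shorter. At these levels, variable fragments made up 53 of 154 fragments of 60 to 74 bp (34.4%) but 37 of 389 of 40 to 49 bp (9.51%). By CpG number the share was 18.4% with 1 CpG, 8.43% with 2 and 25.5% with 4. Repeat sequence masked in the reference covered more than 50% of the fragment at 39 of the 398 (9.80%) and at 263 of the 1311 (20.1%). By the authors' classes, 185 were upstream of a gene (46.5%), where 44.3% of eligible fragments and 52.2% of all those at 30 to 70% lay. Introns held 140 (35.2%, against 28% and 28.1%) and exons 50 (12.6%, against 20.1% and 15.6%). Outside CpG islands and their flanks were 351 (88.2%, against 58.8% and 93.3%), and CpG island cores held 25 (6.28%, against 35.8% and 2.46%), so that for islands the direction depended on the comparison.

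The DDT litters allow the spread to be measured again in libraries that the choice did not use. DDT replicates 4 and 12 stood apart: replicate 4 had a median of 4 calls at the variable fragments, and of the 130 with 50 calls there, 74 were below 2% and 21 above 98%, while in replicate 12 only 17.2% of all calls fell on fragments of 50 bp or less, against 39.6 to 74.5% in the other libraries. Both libraries are shown with and without. With all 12 DDT libraries, 267 of the 398 fragments had 50 calls in at least 10 of them, and the SD across DDT was 8 points or more at 209 (78.3%), against 11% of all 14385 eligible fragments measured the same way and 469 of 1148 other fragments at 30 to 70% (40.9%). Without replicates 4 and 12 and with at least 8 of the remaining 10 libraries, 188 of 330 fragments (57.0%) reached 8 points, against 3.96% of 15320 and 136 of 1276 at 30 to 70% (10.7%). The median SD across DDT was 12.5 points with all 12 libraries and 8.39 points with 10, where the 14990 other eligible fragments had 1.90 points and those at 30 to 70% had 4.47 points.

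How often the spread was found again depended on the number of calls. With 400 or more calls per VEH library, 36 of 50 variable fragments had an SD of 8 points or more across the 10 DDT libraries (72.0%, median 9.93 points), whereas 16 of 514 other fragments at 30 to 70% did (3.11%, median 3.01 points). With 50 to 99 calls the shares were 25 of 57 (43.9%) and 18 of 50 (36.0%), with medians of 7.61 and 7.16 points. At that depth the variable and other fragments thus had nearly the same spread in DDT.

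**Figure D3:**
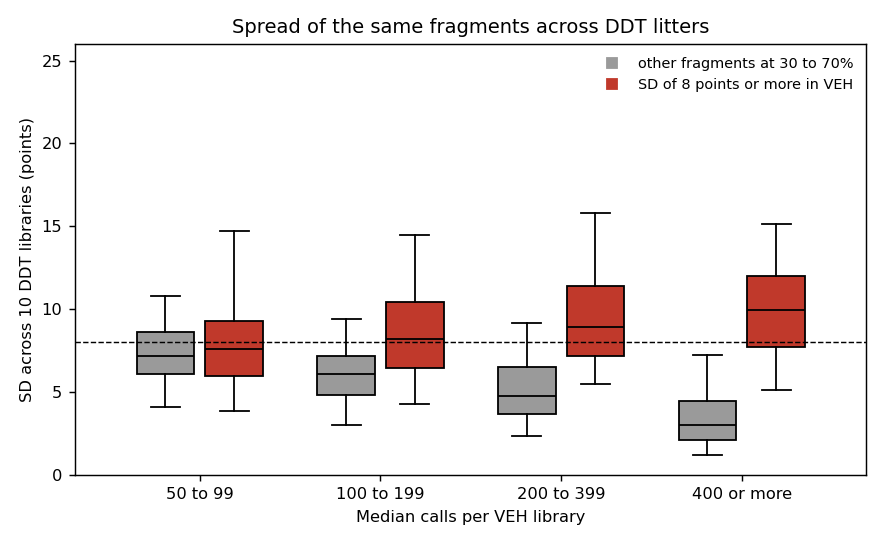
SD of the level across the 10 DDT libraries other than replicates 4 and 12, in percentage points, for variable fragments (red) and other fragments at a VEH level of 30 to 70% (grey), by median calls per VEH library. Boxes are quartiles with the median, whiskers reach the 5th and 95th percentiles, the dashed line is 8 points, and the medians are 9.93 and 3.01 points at 400 or more calls but 7.61 and 7.16 points at 50 to 99 calls.

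The spread in VEH was unevenly shared between litters. VEH replicate 8 was the library farthest from the VEH median at 150 of the 398 fragments, VEH replicate 10 at 60, VEH replicate 2 at 55 and VEH replicate 1 at 36, while VEH replicate 3 was so at 3. VEH replicate 8 had the lowest level at 178 fragments and VEH replicate 10 the highest at 146, and both held at 90. The median deviation from the VEH median was -12.0 points in VEH replicate 8, -7.87 in VEH replicate 1 and 7.60 in VEH replicate 10. At the other fragments of 30 to 70% the corresponding medians were -1.65, -0.684 and 1.04 points. Leaving out VEH replicate 8, 333 fragments passed the rule, 296 of them among the 398, and without replicates 8 and 10 together 320 passed, with 257 shared. Whichever VEH library was left out, 159 of the 398 still passed. Their spread was also found in DDT, where 96 of the 131 measured in the 10 libraries (73.3%) had an SD of 8 points or more.

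The variable fragments moved together across libraries. For each fragment, its deviations in the 12 VEH libraries were correlated with the median deviation of the variable fragments more than 10000 bp away, as a measure of likeness with no test. The correlation was 0.5 or more at 255 fragments (64.1%), -0.5 or less at 19 (4.77%) and in between at 124. These limits of 0.5 were set after the levels had been seen, and the fragments share libraries and depth. In the 10 DDT libraries, which did not enter this grouping, the first set correlated with the DDT profile with a median of 0.731, and 220 of the 231 measured had a positive value. The second set had a median of -0.768 there, with 0 of 16 positive. Other fragments at 30 to 70% had a median of 0.222 with the same DDT profile, with 325 of 1276 (25.5%) at 0.5 or more, compared with 193 of 330 variable fragments (58.5%). Positive values were closer in share, at 890 of 1276 other fragments (69.7%) and 260 of 330 variable ones (78.8%). The VEH SD of the other fragments was a median of 1.34 times the counting error, against 2.63 times for the variable ones. Counting error lowers a correlation, so the comparison is not between like fragments.

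The 19 fragments that moved against the others had a median length of 37 bp, 15 of them (78.9%) were 50 bp or shorter and 13 held only the CpG of the cut site. The 255 moving with the profile had a median of 53 bp, and the other fragments at 30 to 70%, with 42 bp and 68.9%, were nearly as short as the 19. Besides Phf17, they included fragments in introns of Soat1, which esterifies cholesterol, of Sec24d, a coat protein of vesicles leaving the endoplasmic reticulum, and of Col4a3, a basement membrane collagen. At Soat1 the VEH levels ran from 13.7% over 22.4% to 54.5%, and at Sec24d from 15.8% to 68.1%, with the highest level in VEH replicate 8 at both. The SD across the 10 DDT libraries was 15.6 points at Soat1 and 17.3 points at Sec24d, and over the 19 fragments it was 8 points or more at 14 of the 16 measured.

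The libraries differed in composition, and the levels are given beside it. The share of calls on fragments of 50 bp or less, which a read of 50 bases covers from end to end, ran from 51.5 to 74.5% in VEH and from 45 to 62.4% in DDT without replicates 4 and 12. DDT replicate 6 had the lowest of these DDT shares, and there the 255 fragments deviated by -14.7 points and the 19 by 19.6 points. At shares of 60.7 to 62.4%, the 255 fragments deviated by -6.63 and -5.12 points in DDT replicates 1 and 3. In DDT replicates 9, 10 and 11 they deviated by 3.14, 3.64 and 6.44 points. Over the 10 DDT libraries, this share and the median deviation correlated at 0.692 for the 255 and -0.885 for the 19. Over the 12 VEH libraries the values were -0.123 and -0.389. VEH replicates 8 and 10 had nearly equal shares, 55.5 and 53.5%, and lay at opposite ends. DDT replicate 12, with 17.2%, was at -30.1 points for the 255 and 26.5 points for the 19, and DDT replicate 4, with 39.6%, was at -32.9 and -21.5 points.

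The share of calls in CpG island cores was another difference. In DDT replicates 1, 3, 5 and 6 it was 51.6 to 53.2% and the 255 fragments deviated by -14.7 to -5.12 points, whereas in DDT replicates 8 to 11 it was 46.5 to 47.5% and they deviated by -2.48 to 6.44 points. In VEH replicates 1, 8 and 9 the core share was 50.3 to 52.4% and the 255 fragments deviated by -17.7 to -7.01 points. VEH replicate 10, with a core share of 50.5%, went the other way at 11.3 points. In VEH replicates 4, 5, 7 and 12 the core share was 45 to 46.5% and the deviations ran from -0.632 to 6.03 points. The core share and the median deviation of the 255 fragments correlated at -0.773 over the 10 DDT libraries and -0.535 over the 12 VEH libraries. The 124 fragments that followed neither direction were lowest in VEH replicates 2 and 1, with the highest shares of short fragments, at -5.44 and -2.35 points, and lay between -0.747 and 1.24 points in the other VEH libraries. Their median deviation correlated with the share of short fragments at -0.951 over the 12 VEH libraries and -0.55 over the 10 DDT libraries. The part of library composition in the spread was not tested.

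**Figure D4:**
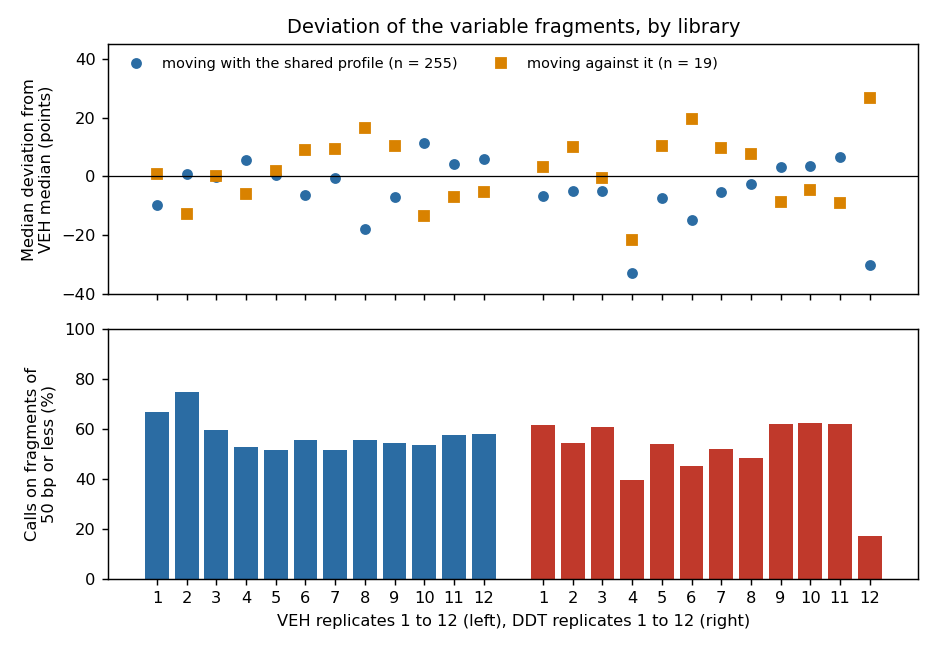
Top: median deviation from the VEH median, in percentage points, of the 255 fragments moving with the shared profile (circles) and the 19 moving against it (squares) in each library; bottom: percent of all calls that fell on fragments of 50 bp or less. The 2 sets take opposite signs in VEH replicates 8 and 10 and in DDT replicates 6 and 12, and both are low in DDT replicate 4.

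VEH replicate 2, with the highest share of calls on short fragments, 74.5%, had the lowest level at 55 fragments. Its median deviation there was -19.8 points, which is low by the choice of these fragments. That of VEH replicate 1, the next highest share at 66.7%, was -9.70 points. At the same fragments DDT replicate 6 was at 11.1 points, DDT replicate 12 at 19.9 points and DDT replicate 4 at -33.9 points. An exon fragment of Etv3, an ETS family transcription repressor, on chr3:87536194-87536260 was 1 of them. It was at 19.1% in VEH replicate 2, with a 95% Wilson interval of 16.4% to 22.3%, and at most 69.2% elsewhere in VEH. In DDT it reached 86.2% in replicate 6 and 98.7% in replicate 12, and its SD over the 10 DDT libraries was 20.9 points. Of the 49 fragments of this set measured in the 10 DDT libraries, 31 had an SD of 8 points or more. Over the 124 fragments that followed neither direction it was 35 of 83, with a median of 7.16 points, compared with 139 of 231 and 8.62 points for the 255 moving with the profile.

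Neighbouring fragments could differ sharply. Variable fragments lying within 1000 bp of one another formed 23 groups with 56 fragments in all, the largest with 6 fragments at the Gnas cluster, with a further group of 4 at Gnas. Among the 23 neighbouring pairs measured in both fragments across the 10 DDT libraries, 19 had a positive correlation, with a median of 0.749. In contrast, 146 pairs joined a variable fragment to an abutting eligible fragment that was not. In the 29 of these pairs whose steady fragment was at 30 to 70% and whose fragments both had DDT values, the variable fragment had the larger SD across the 10 DDT libraries in 26, with medians of 8.19 and 4.89 points. The variable fragments of these pairs also had fewer calls, 164 against 274.

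The Gnas cluster on distal chromosome 2 makes several imprinted transcripts from alternative promoters, some methylated on the maternal and some on the paternal allele. It held 19 eligible fragments at 20 to 80%, of which 12 were variable, compared with 349 of all 2654 eligible fragments at that level. The 12 had VEH SDs of 9.34 to 17.4 points, while the other 7 had 1.96 to 6.95 points. Across the 10 DDT libraries the 12 had SDs of 8.90 to 21.5 points and the 7 had 2.05 to 8.14 points, and these ranges did not overlap. The largest DDT SDs, 21.5 and 20.8 points, were at fragments with 91 to 550 and 53 to 148 calls per VEH library. Each of these was measured in 9 of the 10 DDT libraries. The short variable fragment at chr2:174299653-174299688, of which the sequence is given above, ran from 10.9% over 34.8% to 61.8% in VEH (SD 15.3 points) with 579 to 1401 calls. The steady fragment, separated from it by a variable one of 209 bp and with 2332 to 3164 calls, stayed between 63.5% and 74.0% (SD 2.68 points). In the 10 DDT libraries their SDs were 13.4 and 2.56 points. VEH replicate 8 had the lowest level at 8 of the 12 variable fragments and VEH replicate 10 the highest at 7. A fragment at chr2:174329692-174329752 did not follow this order and was at 15.5 to 58.1%.

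**Figure D5:**
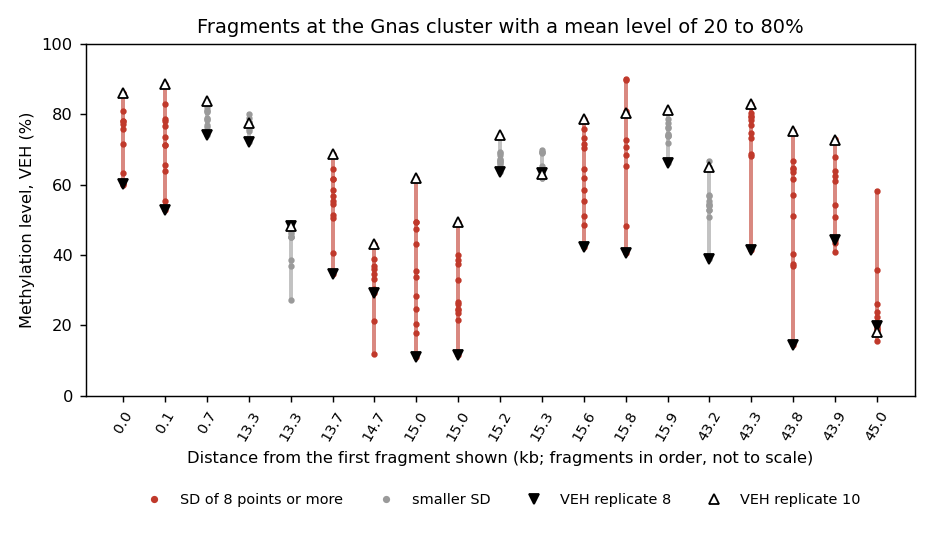
Methylation level in percent in the 12 VEH libraries at the 19 eligible Gnas cluster fragments with a mean of 20 to 80%, in genomic order and labelled by distance in kb, with variable fragments in red, steady ones in grey, filled triangles for VEH replicate 8 and open triangles for VEH replicate 10. The 12 red fragments have SDs of 9.34 to 17.4 points beside grey ones of 1.96 to 6.95 points.

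At Nnat and Mcts2 a variable fragment also lay near a steadier one. Upstream of Nnat, an imprinted gene of neurons and adipocytes, the first fragment shown ran from 44.4% over 64.8% to 73.1% (SD 8.02 points, 692 to 3228 calls), and the second, within the gene, from 71.1% to 82.2% (SD 3.16 points). The 10 DDT libraries gave SDs of 8.39 and 2.63 points. At the imprinted retrogene Mcts2, inside an intron of H13, a fragment of 125 bp had an SD of 8.80 points in VEH but 5.12 points in the 10 DDT libraries. It abuts a fragment with SDs of 3.82 and 4.63 points, so the difference between the neighbours was small in DDT.

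Of the gene lists, imprinted genes had 6 variable fragments among 40 eligible ones (15%), all assigned to Gnas, Nnat or Mcts2 out of 9 genes with eligible fragments, where 2.49% of all eligible fragments were variable. Of the 40, 7 had mean levels of 30 to 70%, a range where 12.4 to 17.5% of all eligible fragments were variable. The list leaves out the 8 variable fragments of the Gnas cluster that the authors assigned to Mir298. Blood and immune cell genes had 2 of 67, at Cd82 and Csf1, and skeletal muscle genes had 0 of 107. Adipocyte and lipid genes had 3 of 130 (2.31%), at Soat1, at Acss2, which makes acetyl-CoA from acetate, and at Ptgs1, a cyclooxygenase. Stromal and endothelial genes had 3 of 57, at Col4a3 and at Eng, a co-receptor of TGF-β on endothelium. Developmental transcription factors had 13 of 562 (2.31%). Genes beside repeats known for variable methylation had 0 of 35, and the zinc finger cluster of distal chromosome 2 had 0 of 21. The widest imprinted fragment was the one of Gnas shown above. The widest developmental and stromal fragments were in introns, at Lmx1a, a LIM homeobox gene, with 8.23 to 57.4% in VEH (SD 15.6 points, n = 10), and at Eng with 53.8 to 94.8% (SD 11.2 points). Upstream of Cd82, a tetraspanin, the levels were 25.3 to 53.6% (SD 8.86 points). The SD in the 10 DDT libraries was 5.44 points at Eng and 10.7 points at Cd82.

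With DDT replicates 4 and 12 included, the largest DDT spreads were at the 194 bp fragment of Gnas next to the one shown (28.1 points), at a fragment in an exon of Nespas, assigned to Mir298 (27.5 points) and at a fragment near Mir219-2 (27.4 points). Without them, the values were 20.8, 13.2 and 5.50 points. The next 7 by DDT spread were near AC112941.2, Ptprv, Pacsin3, Phf17, Angptl1, Etv3 and 4930523C07Rik, with 25.7 to 27.1 points in all DDT libraries and 9.18 to 20.9 points without replicates 4 and 12.

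Whether DDT changed the level of these fragments was asked with an ANOVA F test on the levels of the 20225 fragments with 10 calls in at least 8 libraries per group, and the p-values were adjusted by the Benjamini-Hochberg method over all of them. The ANOVA called 0 of the 398 variable fragments at an adjusted p under 0.05, as it did over the whole table (0%), and their lowest adjusted p-value was 0.869. Neither limma nor a quasi-binomial regression called any (0 fragments each). The paper does report genes differentially methylated at an FDR under 0.05 in infants exposed to DDT. Its analysis covered the genome, whereas the table used here ends within chromosome 3, so the fragments and the adjustment differ. Before adjustment, 16 of 398 (4.02%) had a p under 0.05, close to the background of 4.18% over all tested fragments. The VEH spread that chose the fragments also enters the error of this test, so its counts cannot decide whether DDT changed them. All 16 were lower in DDT, the direction of most of the 398. The direction of such fragments over the whole table is not given here. Without DDT replicates 4 and 12, 8 of 398 had an unadjusted p under 0.05 (2.01%, against 4.51%). Without VEH replicate 8 it was 38 (9.55%, against 4.41%). The median difference, DDT minus VEH, was -3.66 points, with a median standard error of 4.71 points, and 301 fragments (75.6%) were lower in DDT, compared with 56.9% of all tested. Without DDT replicates 4 and 12 the median difference was -2 points and 67.3% were lower, compared with 49.0%. Because most of the fragments move together between libraries, these counts are not over independent fragments.

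Among the fragments with the 10 smallest p-values, an exon fragment of the homeobox gene Hlx had a VEH level of 56.1% ± 9.11 (SD, n = 12) and a DDT level of 43.4% ± 12.6 (SD, n = 11), with p = 0.0111 (ANOVA, adjusted p = 0.869). Others of the 10, with p-values from 0.0132 to 0.0285, were at Meis2, Cstad, Gpr161, Foxa2, Mir126, Ralgds and Mir298. At Foxa2, a forkhead factor, the fragment lies 7 bp from the gene's start and its level was 19.7% ± 9.77 (SD, n = 12) in VEH against 11.5% ± 4.67 (SD, n = 11) in DDT. The largest difference of the 10 was at Mir298 in the Gnas cluster, at -21.5 points, or -16.6 points without DDT replicates 4 and 12, and the levels of both groups overlapped there.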

How the data were processed

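RRBS of infant BAT gave 12 VEH and 12 DDT libraries. The authors trimmed 50 bp reads with Scythe and Sickle, aligned them to GRCm38 with Bismark 0.15.0 and Bowtie 2, and deposited, for each MspI fragment, the raw counts of methylated and unmethylated CpG calls with a gene and a CpG island class. The start of each fragment was an MspI site in GRCm38.p6 (100% of fragments). Sequences are from RefSeq and gene models from GENCODE M21. Reads of 50 bases end within longer fragments, so only CpGs near their ends are counted, and in fragments of 50 bp or less reads can run into bases filled in during end repair. Which calls these are was not tested.

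The level was the share of methylated calls, used with at least 50 calls for spreads and at least 10 for the ANOVA, and SDs have n - 1. Calls per library ranged from 8371958 to 14124652. Each level was taken in 1 library per litter, by the paper's account of the pooling, and the labels give each library only a replicate number. The fragments, gene lists and tests were chosen with earlier results of these data known. Named are the 10 fragments with the largest VEH SD, the 10 with the largest DDT SD, the 10 with the smallest p, the widest of each gene list, 3 on either side of the threshold and the 3 groups with the most fragments within 1000 bp. The other fragments named at Gnas, Nnat and Mcts2 and among those moving against the profile, and the set lowest in VEH replicate 2, were chosen after their values were seen. Some fragments that this rule selects are not reported here. Libraries with the same replicate number were not treated as pairs. Alternatives were limma on log2((methylated + 1) / (not methylated + 1)), a quasi-binomial regression, other call and library minimums, a depth covariate, a replicate block and each library left out. The software was pysam 0.24.0, SciPy 1.17.1, NumPy 2.4.6, matplotlib 3.10.9 and pandas 2.3.3 under Python 3.11.15, and limma 3.58.1 under R 4.3.3, and the tests were checked on simulated data.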

Additional observations from a re-analysis of the deposited data

How the results depend on the processing

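The number of variable fragments depended on the call minimum: 708 passed with 30 calls and 185 with 100 calls, of which 388 and 178 were among the 398, and 259 passed when all 12 VEH libraries had to have 50 calls. With each VEH library left out in turn it ran from 333 to 444. The count with an SD of 8 points or more across DDT was 116 of 137 fragments with 100 calls, and 205 to 220 with each DDT library left out. The median DDT SD was 8.39 points without DDT replicates 4 and 12, and 9.58 to 10.4 points without 1 of them. No fragment was called under any of the alternatives to the ANOVA. At an unadjusted p under 0.05, a quasi-binomial regression gave 38 of the variable fragments (9.55%, against 7.72% of all tested), leaving out both DDT replicates 4 and 12, an alternative added after seeing the data, gave 8, and each library left out gave 11 to 38, with 38 without VEH replicate 8 and 33 without DDT replicate 11.

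The replicate number as a block gave 0 called fragments and 12 variable fragments at an unadjusted p under 0.05. Same-numbered VEH and DDT libraries had correlations of their deviations from -0.20 to 0.22, 3 of 12 pairs were over 0.1, and 1 of 12 VEH libraries correlated best with its own number. These values show no clear pairing by number but cannot exclude a weak one. Depth limits the list: with 50 to 99 calls per VEH library, variable and other fragments at 30 to 70% had median DDT SDs of 7.61 and 7.16 points.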
